A study of Mus musculus with 21 samples.

Results

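The 8 long noncoding RNA genes *Meg3*, *Rian*, *Mirg*, *Miat*, *Malat1*, *Neat1*, *Snhg11* and *Rmst* were chosen by name from the 52550 genes of a count table. The table held 21 libraries, 3 for each of 7 groups. The spiral ganglion neurons (SGNs) of the cochlea were collected at 5 ages, namely E15.5 in the embryo and P1, P8, P14 and P30 after birth, while hair cells (HCs) were taken at P12 and glia at P8. SGNs are the neurons that carry signals from the HCs of the inner ear to the brain, and the glial cells here are those that lie around them. SGNs were picked by hand from *ShhCre/+* mice, HCs came from the *Atoh1-CreER+* line and glial cells from the *vGlut3-iCreER/+* line, each with the tdTomato reporter Ai9 and all on C57BL/6. HCs and glial cells also came from mice given tamoxifen as pups, which the SGN mice were not, and the HCs came from cochlear and vestibular organs together. An SGN library held 69 to 195 cells, a glial library 86 to 125 and an HC library about 1200. The study's methods say that HCs were sorted by fluorescence and glial cells picked by hand, while the labels describe HCs as picked by hand. Cre line, tamoxifen and, except at P8, age therefore differed together with cell type and cannot be told apart from it. For HCs this also holds for the number of cells and, if they were sorted, for the way of collection. The labels do not say whether replicates came from separate animals, so p-values measure only the spread between these libraries.

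Long noncoding RNAs are transcripts that act, where they act at all, without being translated. *Meg3*, *Rian* and *Mirg* lie one after another on the same strand of the imprinted Dlk1-Dio3 region and are transcribed from the chromosome inherited from the mother. Small RNAs are cut from these transcripts: *Rian* holds a cluster of C/D small nucleolar RNAs (snoRNAs), and *Mirg* a cluster of microRNAs. *Malat1* is retained in nuclear speckles, where splicing factors gather, and *Neat1* is the scaffold of paraspeckles. *Miat*, also called Gomafu, is a nuclear RNA of neurons that binds splicing factors, *Snhg11* is a snoRNA host gene, which GENCODE M21 types as protein coding, and *Rmst* is an RNA that associates with the transcription factor Sox2 in neural progenitors.

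Totals per library lay between 10368240 and 37287489 counts. Levels are given as CPM, counts scaled by library size, with the library total scaled by the trimmed mean of M-values (TMM). In SGN libraries, the 6 listed SGN markers, such as *Slc17a7*, *Tubb3* and *Nefl*, were all detected and summed to between 1979 and 8210 CPM, against 157 to 191 in HC libraries. Glia replicate 1 had 635 CPM of SGN markers, against 122 and 74.7 in the other glial libraries, so differences of the members from glia are also given without it. Mitochondrial genes took 9.57% to 13.5% of counts at E15.5, 9.54% to 10.6% in HCs and 10.3% to 13.5% in glia, but 16.4% to 24.2% in SGNs from P1 on.

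The label of abundant neuronal RNAs held for some of the 8 genes and not for others. Per kilobase of transcript, the order of mean levels in P8 SGNs was *Malat1* at 483 CPM per kilobase, *Meg3* at 121, *Snhg11* at 84.8, *Rian* at 48.3, *Miat* at 19.2 and *Mirg* at 11.1. *Neat1* followed at 0.952 CPM per kilobase and *Rmst* at 0.00552. In HCs, the order of these per-length levels was *Malat1* (1661), *Miat* (27.9), *Neat1* (16.7) and *Snhg11* (5.02), with the other members under 1 CPM per kilobase. In glia, *Malat1* (1909) was followed by *Neat1* (28.8), *Meg3* (20.6) and *Rian* (5.89). *Malat1*, *Neat1* and *Rmst* were each higher in at least 1 of the other cell types than in SGNs. Together the 8 genes took 1.24% ± 0.304 (SD, n = 3) of all counts in E15.5 SGNs, 0.543% ± 0.326 in P30 SGNs, 1.69% ± 0.0740 in HCs and 1.42% ± 0.237 in glia.

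**Figure D1:**
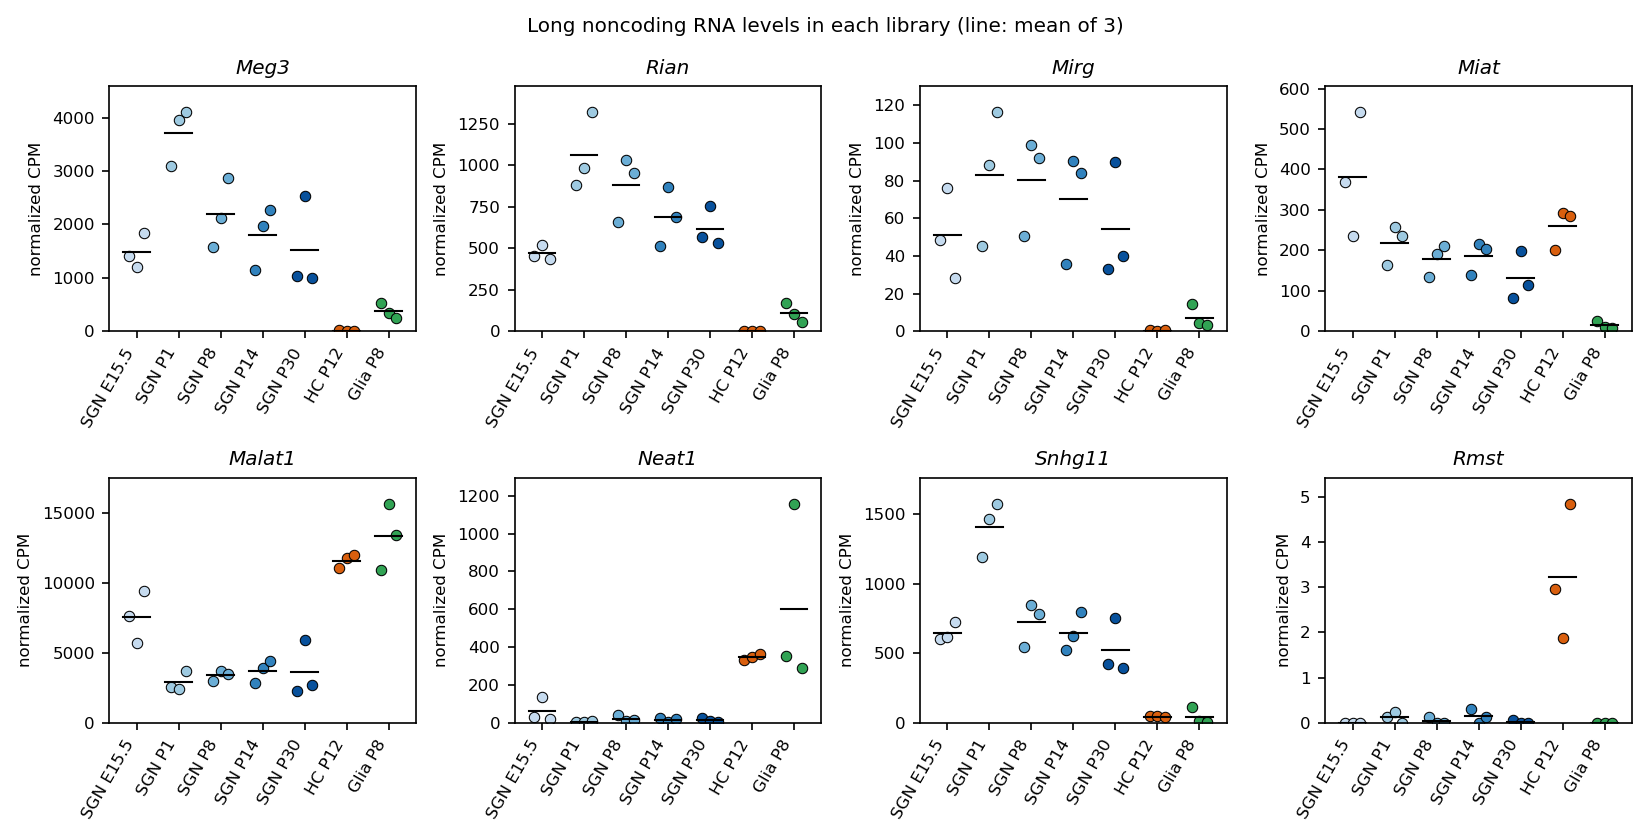
Normalized CPM (linear axis, each panel with its own scale) of the 8 long noncoding RNAs in each of the 21 libraries, with points for single libraries and a line for the mean of 3. *Meg3*, *Rian* and *Mirg* are near 0 in HCs, *Malat1* and *Neat1* are highest in glia and HCs, and *Rmst* is above 1 CPM only in HCs.

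The region of the first trio was read from GENCODE M21 on GRCm38. *Meg3* spans chr12:109541001-109571726, *Rian* chr12:109603940-109661716 and *Mirg* chr12:109729764-109749460, all on the plus strand. From the start of *Meg3* to the end of *Mirg* is 208460 bases. RefSeq places 106 mature microRNAs of 57 genes on this strand within that stretch, of which 26 lie in *Mirg*, 6 in *Rian*, 3 in *Meg3* and 71 between them. They carry 97 different seeds (bases 2 to 8), and 9 seeds are shared by 2 genes. The pairs below are shown because the trio's transcripts contain or flank them and because each pair reads the same seed from separate hairpins. The seed is in capitals.
mmu-miR-379-5p: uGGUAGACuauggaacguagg
mmu-miR-1193-5p: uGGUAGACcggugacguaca
mmu-miR-379-3p: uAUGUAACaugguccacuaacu
mmu-miR-411-3p: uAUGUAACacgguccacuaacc
mmu-miR-494-5p: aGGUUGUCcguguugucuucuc
mmu-miR-410-5p: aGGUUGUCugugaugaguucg
mmu-miR-453: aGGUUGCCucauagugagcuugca
mmu-miR-496a-5p: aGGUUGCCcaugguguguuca
mmu-miR-370-5p: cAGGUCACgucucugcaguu
mmu-miR-1193-3p: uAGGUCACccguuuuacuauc
Of these, miR-370-5p lies inside *Rian* at chr12:109618270-109618289, and miR-453 (chr12:109735669-109735692), miR-496a-5p (chr12:109739132-109739152) and miR-410-5p (chr12:109743729-109743749) lie inside *Mirg*. miR-379-5p (chr12:109709065-109709085) lies between *Rian* and *Mirg*. Mature microRNAs are too short for these libraries, so counts on microRNA genes are reads over the hairpin locus and not levels of the mature forms.

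RefSeq gives 2 promoter windows for *Meg3*. The first, from 250 bases before its start to 50 bases after (GRCm38.p6, chr12:109540746-109541045, plus strand), is shown because the transcripts downstream of it varied together across libraries. Capitals mark TGACGTCA, the cAMP response element.
Meg3 promoter: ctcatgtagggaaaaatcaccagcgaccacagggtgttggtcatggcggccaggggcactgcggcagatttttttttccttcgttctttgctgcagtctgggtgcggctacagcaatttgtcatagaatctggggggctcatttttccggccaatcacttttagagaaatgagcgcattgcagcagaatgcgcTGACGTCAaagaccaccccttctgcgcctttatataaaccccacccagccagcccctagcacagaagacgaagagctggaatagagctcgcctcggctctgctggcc
This element, searched on both strands, is in 1.79% of the 32851 promoters of this length in RefSeq. The other *Meg3* window (chr12:109545148-109545447) holds none of TGACGTCA, TATAAA and CCAAT. The first window holds TATAAA, found in 13.6% of promoters, and CCAAT, found in 37.4%. Neither the *Rian* window nor the *Mirg* window holds TGACGTCA. The RefSeq window of *Mirg* (chr12:109734731-109735030) lies inside *Mirg* as GENCODE M21 places it, so it does not cover the start given above. RefSeq windows were found for 6 of the 8 members, and the match of a motif is a description of letters only.

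*Meg3* was high in SGNs at each age, 5.05-fold lower in glia and almost absent from HCs. Its levels were 1412, 1206 and 1829 CPM in the 3 SGN libraries at E15.5, 3085, 3962 and 4100 at P1 and 1580, 2128 and 2870 at P8. They were 1153, 1973 and 2260 CPM at P14 and 1028, 2525 and 999 at P30. HC libraries had 14.5, 3.08 and 3.57 CPM, and glial libraries 535, 340 and 242. No HC or glial library reached the lowest SGN library, and each P1 library was above each library of the other ages. From E15.5 to P1 *Meg3* rose by 1.32 ± 0.298 on the log2 scale (± SE, adjusted p = 0.0104 from limma-voom), a 2.50-fold rise. In this comparison 4 of the 7 members tested were called at adjusted p under 0.05 and a change over 2-fold, where 8.26% of the 15113 genes tested were called. Against HCs, the mean of the SGN ages was higher by 8.53 ± 1.48 (adjusted p = 5.50e-05), and against glia by 2.34 ± 0.426 (adjusted p = 0.000124).

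*Rian* moved as *Meg3* did. SGN libraries had 455, 519 and 434 CPM at E15.5, 882, 983 and 1320 at P1 and 657, 1031 and 955 at P8. They had 511, 868 and 689 CPM at P14 and 567, 755 and 530 at P30. HC libraries had 2.60, 0.599 and 2.29 CPM, and glial libraries 168, 100.4 and 54.1. Every P1 library was above every E15.5 library, while P1 and P8 overlapped. The rise between these ages was 1.14 ± 0.216 (adjusted p = 0.00384), which was 0.95 and no longer over 2-fold without P1 replicate 3. The difference was 8.83 ± 1.15 against HCs (adjusted p = 1.41e-06) and 2.73 ± 0.361 against glia (adjusted p = 2.94e-06), with no overlap of the libraries.

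*Mirg* was the lowest of the trio. SGN libraries ranged from 28.4 to 76.1 CPM at E15.5, 45.2 to 116 at P1, 50.7 to 99.1 at P8, 35.5 to 90.5 at P14 and 33.1 to 89.9 at P30, so the ages overlapped throughout. The HC libraries had 8, 0 and 9 counts and the glial libraries 277, 49 and 32, while no SGN library had fewer than 588. Its difference between E15.5 and P1 was 0.66 ± 0.481 (adjusted p = 0.389), which was not called. Against HCs *Mirg* was higher in SGNs by 8.57 ± 1.43 (adjusted p = 3.36e-05). Against glia it was higher by 3.22 ± 0.914 (adjusted p = 0.00600), and this call was lost without any one of the 3 glial libraries (adjusted p = 0.0179, 0.0310 and 0.0285 without replicates 1, 2 and 3).

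The spread between SGN libraries was shared within the trio. Over the 15 SGN libraries, Pearson's r of log2(CPM + 1) was 0.82 for *Meg3* and *Rian*, 0.65 for *Meg3* and *Mirg* and 0.78 for *Rian* and *Mirg*. These libraries share ages and scaling, so the values are a description. Per length, the level of *Rian* was 0.235 to 0.548 of that of *Meg3* in SGN libraries and 0.222 to 0.311 in glial libraries, which overlapped. P30 replicate 2 was above both other P30 libraries for *Meg3*, *Rian*, *Mirg*, *Miat*, *Malat1* and *Snhg11*, and it also had the lowest mitochondrial share at that age, at 17.9%.

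Other transcripts of the region were taken from a list. The list of the region held *Dlk1*, *Begain*, *Rtl1*, *Dio3*, *Dio3os* and the 60 microRNA genes of the stretch, and 10 of these 65 genes passed the filter on low counts. Against HCs, 7 of the 10 were called higher in SGNs and 0 lower. Of the 17531 genes tested, 26.8% were called at adjusted p under 0.01 and over 4-fold, 10.5% higher and 16.2% lower. The median difference over the 10 genes was 5.26, against 0.02 over all genes tested. Most of the 10 passed the filter only through SGN libraries, so the count gives no support beyond the values. Against glia, 6 of the 10 were higher and 0 lower, where 14.3% and 10.4% of all genes were, 24.7% together. Between P8 SGNs and P8 glia, 2 of the 10 were higher and 0 lower, where 13.4% and 7.53% of all genes were, 20.9% together. The same limit of the filter holds for these counts against glia. Summed over the 60 microRNA genes, SGN libraries had 211 to 979 counts, HC libraries 2, 0 and 0, and glial libraries 366, 11 and 9, the first of these in the glial library with the most SGN marker RNA. *Rtl1*, a retrotransposon-like gene transcribed from the other strand between *Meg3* and *Rian*, had 3.73 to 70.5 CPM over the SGN libraries and at most 0.160 in HCs. *Rtl1* passed the filter only through SGN libraries, so its difference from HCs is given by these values and without a test. Whether counting used strand is not given in the sources used here, so reads of *Rtl1* cannot be told apart from reads of an antisense transcript. *Gm37899* and *B830012L14Rik*, which lie between *Rian* and *Mirg* and were chosen after their values were seen, averaged 67.3 and 50.6 CPM in P8 SGNs, 0.303 and 0.145 in HCs and 15.1 and 12.7 in glia. *Dlk1*, a growth regulator transcribed from the paternal copy, was uneven within an age and did not pass the filter. It averaged 16.9 ± 29.0 CPM (SD, n = 3) in E15.5 SGNs, with 0, 50.4 and 0.387 CPM in replicates 1, 2 and 3. *Dio3*, which encodes the enzyme that inactivates thyroid hormone, had 5.07 ± 1.71 CPM in E15.5 SGNs and 0 counts in all libraries of the other groups. It passed the filter only through the E15.5 libraries, so no test is given for it.

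**Figure D2:**
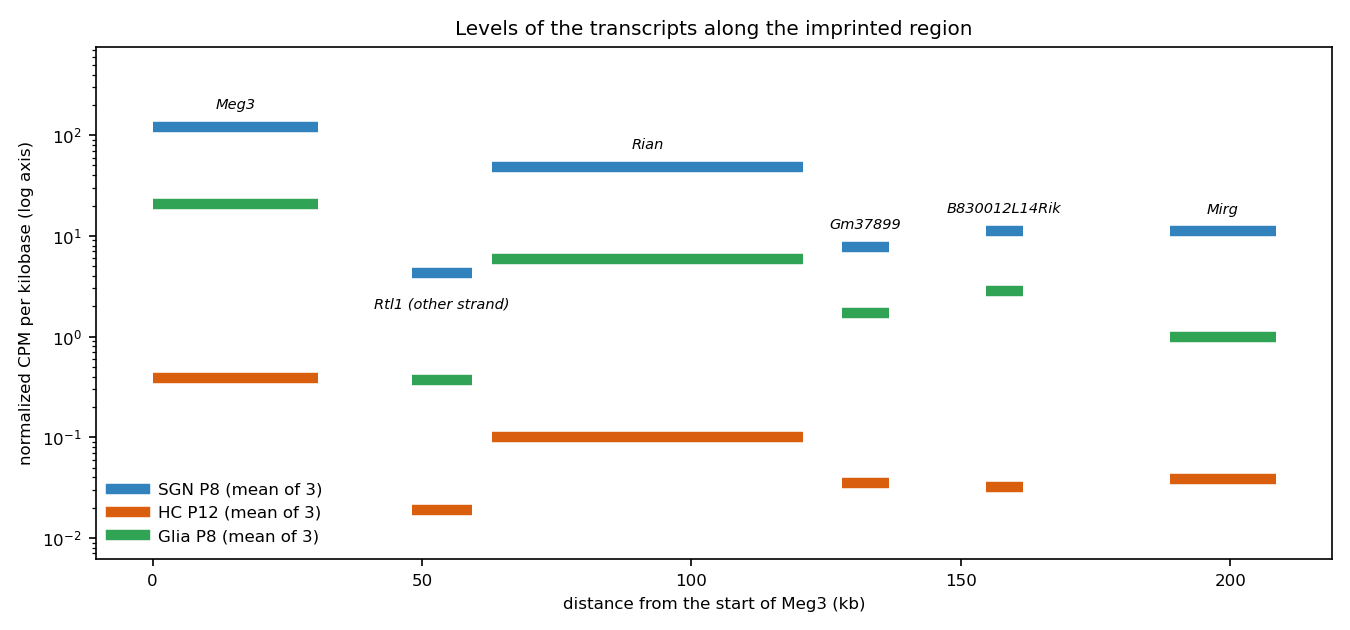
Mean normalized CPM per kilobase (log axis) of 6 genes of the imprinted region, drawn over their extent in kilobases from the start of *Meg3*, for P8 SGNs, P12 HCs and P8 glia (3 libraries each). For each of the 6 genes the SGN bar is highest and the HC bar lowest; *Meg3* is at 121, 20.6 and 0.390 CPM per kilobase in SGNs, glia and HCs.

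*Snhg11* (chr2:158375638-158386145, plus strand) followed the course of *Meg3* in SGNs and differed from it outside them. SGN libraries had 598, 616 and 724 CPM at E15.5, 1190, 1464 and 1574 at P1 and 546, 843 and 780 at P8. They had 522, 621 and 798 CPM at P14 and 422, 753 and 391 at P30. Each P1 library was above each other SGN library. Over the 15 SGN libraries r with *Meg3* was 0.94. The rise from E15.5 to P1 was 1.10 ± 0.214 (adjusted p = 0.00440), which was 0.98 without P1 replicate 3. From P1 to P8 the difference was -0.97 ± 0.201 (adjusted p = 0.00498), just under the 2-fold limit. It was past that limit and called without P1 replicate 1, P8 replicate 2 or P8 replicate 3 (-1.10, -1.12 and -1.06). Over all libraries left out in turn, it ranged from -1.12 to -0.79. HC libraries had 44.9, 46.0 and 37.4 CPM, and the SGN mean was higher than in HCs by 4.08 ± 0.459 (adjusted p = 1.92e-07). Glial libraries had 112, 13.4 and 3.85 CPM, in the same order as their SGN markers. SGNs were higher than glia by 4.91 ± 0.736 (adjusted p = 1.40e-05), and by 6.62 without glia replicate 1. What part the SGN RNA in that library had in its *Snhg11* level was not tested.

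Other snoRNA host genes were taken from a list. Of 17 listed genes, 14 were in the table and 11 were tested. Between E15.5 and P1, 0 of the 11 rose and 2 fell, where 5.08% of all genes rose and 3.18% fell, and a count of 0 among so few genes is no result. From E15.5 to P30, 0 rose and 5 fell (*Snhg1*, *Snhg5*, *Snhg17*, *Gas5* and *Zfas1*), where 34.6% of all genes were called and 16.2% fell. *Gas5*, host of many box C/D snoRNAs, went from 150.3 ± 23.4 to 50.1 ± 4.10 CPM (SD, n = 3), a fall of 1.62 ± 0.194 on the log2 scale (adjusted p = 7.42e-06). *Snhg11* itself differed by -0.43 ± 0.238 over the same span (adjusted p = 0.159). Against HCs 1 of the 11 was called higher in SGNs and 0 lower, where 10.5% and 16.2% of all genes were. Against glia 1 was called higher and 1 lower (*Snhg18*), where 14.3% and 10.4% of all genes were. So few calls are no result about the list. *Snhg14*, the long transcript that hosts snoRNAs of the Prader-Willi region, was the 1 called higher in SGNs than in HCs, by 3.14 ± 0.452 (adjusted p = 5.42e-06). It was also higher than in glia, by 3.51 ± 0.596 (adjusted p = 5.73e-05), with 51.5 to 127 CPM over the SGN libraries, 8.54 to 10.1 in HCs and 30.6, 4.17 and 1.64 in glia. The glial libraries again stood in the order of their SGN markers, as they also did for *Meg3*, *Rian*, *Mirg* and *Miat*. What part SGN RNA had in these glial levels was not tested. Between E15.5 and P1 *Snhg14* differed by 0.91 ± 0.216 (adjusted p = 0.0138), under the 2-fold limit, from 59.6 to 113 CPM on average and with no overlap of the libraries.

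*Miat* (chr5:112213228-112229395, minus strand) was an RNA of SGNs and HCs and not of glia. SGN libraries had 370, 236 and 541 CPM at E15.5, 164, 258 and 235 at P1 and 134, 190 and 210 at P8. They had 140.0, 214 and 204 CPM at P14 and 81.6, 198 and 113 at P30. From E15.5 to P1 the difference was -0.77 ± 0.303 (adjusted p = 0.107), and the libraries overlapped. Without E15.5 replicate 2 it was -1.11 and was called (adjusted p = 0.0193 from limma-voom). Over all libraries left out in turn, it ranged from -1.11 to -0.45, with an adjusted p from limma-voom of up to 0.3745. Over the whole span from E15.5 to P30 *Miat* fell by 1.65 ± 0.332 (adjusted p = 0.000950), a 3.13-fold fall, with no overlap. It was 1 of 2 members called in that comparison, both lower, where 16.2% of all genes fell. HC libraries had 202, 293 and 284 CPM, within the range of SGNs, and the difference of SGNs from HCs was -0.42 ± 0.232 (adjusted p = 0.130). Glial libraries had 24.4, 10.3 and 8.85 CPM, all below the lowest SGN library. SGNs were higher than glia by 3.76 ± 0.686 (adjusted p = 0.000126) and HCs were higher than glia by 4.18 ± 0.710 (adjusted p = 8.17e-05). *Gm26953*, on the other strand, overlaps *Miat* and held 552 counts over the 21 libraries, against 91511 for *Miat*.

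The listed RNA-binding proteins reported to bind *Miat* were *Celf3*, *Sf1*, *Celf1* and *Qk*. *Celf3*, a neuronal splicing factor, fell at each of the first transitions, from 263 ± 31.7 CPM at E15.5 to 96.2 ± 9.07 at P1 and 20.6 ± 3.95 at P8 (SD, n = 3). Its log2 change was -1.43 ± 0.180 from E15.5 to P1 (adjusted p = 0.000201) and -2.26 ± 0.252 from P1 to P8 (adjusted p = 3.55e-05). *Sf1*, which reads the branch point of introns, and *Celf1* also fell from E15.5 to P30, by 1.45 and 1.70 on the log2 scale (adjusted p = 3.29e-05 and 5.44e-06). *Qk*, a splicing regulator of myelinating glia, had 2105 ± 86.1 CPM in glia against 179 ± 35.1 in P8 SGNs and 43.6 ± 13.7 in HCs. It rose in SGNs from P1 to P8 by 1.93 ± 0.277 (adjusted p = 0.000286), when the summed glial markers went from 39.6 to 147 CPM at P1 to 883 to 1213 at P8. What part glial RNA had in that rise was not tested.

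*Malat1* (chr19:5795690-5802672, minus strand) had the highest level per kilobase of the 8 genes in each of the 21 libraries. SGN libraries had 7620, 5724 and 9400 CPM at E15.5 and 2540, 2400 and 3678 at P1. They had 3003, 3670 and 3455 CPM at P8, 2803, 3893 and 4390 at P14 and 2281, 5946 and 2672 at P30. HC libraries had 11046, 11778 and 11977 CPM and glial libraries 10938, 15662 and 13392. All HC and glial libraries were above all SGN libraries, and all E15.5 libraries were above all P1, P8 and P14 libraries. By counts per length, *Malat1* ranked 8 in each HC library, 10 to 13 in glia, 12 to 17 at E15.5 and 25 to 74 in later SGNs. It fell from E15.5 to P1 by 1.41 ± 0.269 (adjusted p = 0.00402), a 2.65-fold fall, and from E15.5 to P30 by 1.24 ± 0.271 (adjusted p = 0.00180). The second fall was 0.94, under 2-fold, without P30 replicate 1. In P1 SGNs *Meg3* took more counts, with 3716 ± 551 against 2873 ± 701 CPM, but its transcript is longer, and per kilobase *Malat1* stayed above at 411 ± 100.3 against 205 ± 30.4 (SD, n = 3). The log2 difference of SGNs was -1.63 ± 0.141 from HCs (adjusted p = 3.75e-09) and -1.76 ± 0.156 from glia (adjusted p = 1.08e-08), or 3.09-fold and 3.39-fold, under the 4-fold limit, so neither was called. With library size in place of TMM, the difference from HCs was -2.19 and was called. Between P8 SGNs and P8 glia it was -1.94 ± 0.220 and not called, but -2.001 and -2.11 and called without P8 SGN replicate 2 or glia replicate 1. Over all libraries left out in turn, it ranged from -2.11 to -1.81.

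*Neat1* (chr19:5824708-5845478, minus strand) lies upstream of *Malat1* on the same strand, with 22036 bases between its end and the start of *Malat1*, and was an RNA of HCs and glia, low and uneven in SGNs. HC libraries had 333, 346 and 361 CPM and glial libraries 352, 1158 and 287. SGN libraries had 28.0, 134 and 18.7 CPM at E15.5, 5.26, 2.57 and 6.45 at P1 and 40.0, 7.37 and 11.9 at P8. They had 22.3, 5.77 and 17.1 CPM at P14 and 24.3, 6.64 and 4.79 at P30. All HC and glial libraries were above all SGN libraries, while the ages overlapped except E15.5 with P1 and P1 with P8. The log2 difference of SGNs was -4.71 ± 0.459 from HCs (adjusted p = 2.40e-08) and -5.16 ± 0.465 from glia (adjusted p = 1.31e-08). HCs and glia differed by -0.45 ± 0.384 (adjusted p = 0.356). From E15.5 to P1 the difference was -3.24 ± 1.03 (adjusted p = 0.0525), which was not called, although edgeR's quasi-likelihood test gave an adjusted p of 0.0196 and DESeq2 one of 2.4e-05. Without E15.5 replicate 3 the adjusted p from limma was 0.0292, and the difference was called. Over all libraries left out in turn, it ranged from -3.88 to -2.33, with an adjusted p from limma of up to 0.133. From E15.5 to P30 the difference was -2.05 ± 0.885 (adjusted p = 0.0732). It was called by edgeR and DESeq2 (adjusted p = 0.0385 and 0.00378) and by limma-voom without E15.5 replicate 3 (adjusted p = 0.0237). With single libraries left out it ranged from -2.95 to -1.15, with an adjusted p from limma-voom of up to 0.259.

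At 3 of the 5 ages, the SGN library with most *Neat1* also held most marker RNA of connective tissue and of glia. At P8, P14 and P30 replicate 1 had the highest *Neat1* of the 3 libraries, and at each of these ages it also had the highest sum of connective tissue markers (*Col1a1*, *Col1a2* and *Col3a1*), at 397, 212 and 115 CPM against at most 83.3, 39.7 and 2.96 in the others. At P1 the library with 475 CPM of these markers had only 5.26 CPM of *Neat1*, and at E15.5 the library with 134 CPM of *Neat1* had 138 CPM of the markers, close to the 142 of replicate 1. Over the 15 SGN libraries, r of log2(CPM + 1) between *Neat1* and the marker sum was 0.53 for connective tissue, 0.35 for glia, 0.26 for blood, -0.08 for microglia, -0.41 for SGN and -0.51 for HC markers, a description over libraries that share ages. Of the connective tissue markers, *Col3a1* was at 0 in 3 SGN libraries. Summed glial markers were also highest in replicate 1 at P8, P14 and P30, at 1213, 516 and 151 CPM against at most 999, 342 and 42.6. At E15.5 and P1 they were highest in replicates 3 and 2, at 213 and 147 CPM, which had the least *Neat1* of their age. The part of other cells in the *Neat1* of SGN libraries was not tested.

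**Figure D3:**
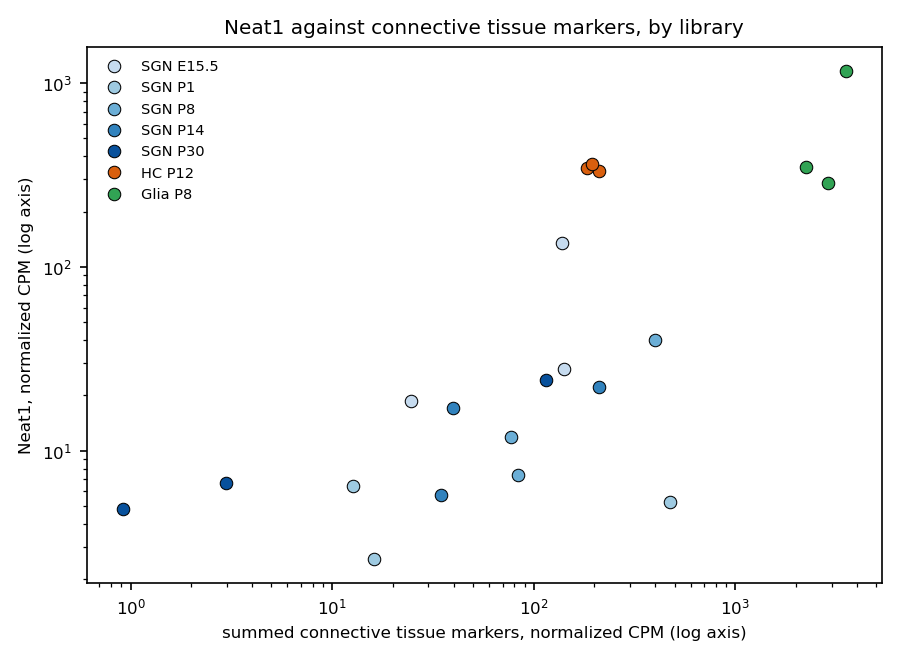
*Neat1* against the summed connective tissue markers *Col1a1*, *Col1a2* and *Col3a1*, both in normalized CPM on log axes, with a point for each of the 21 libraries. HC libraries hold 333 to 361 CPM of *Neat1* at marker sums of 183 to 211, and the P14 SGN library with a sum of 212 holds 22.3.

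Of 18 listed genes for proteins of paraspeckles and speckles, all of which were tested, 6 fell from E15.5 to P30 and 0 rose, with a median change of -0.79 on the log2 scale against -0.0064 over all genes tested, where 16.2% of all genes fell. Among those that fell were *Nono*, *Sfpq* and *Rbm14*, which encode proteins of paraspeckles. *Sfpq* went from 190 ± 27.5 to 78.2 ± 9.97 CPM (SD, n = 3), with an adjusted p of 3.21e-05 from limma-voom. At the step to P1, when *Malat1* fell, 1 of the 18 fell (*Rbm14*, by 1.08 ± 0.318, adjusted p = 0.0393) and 0 rose, near the 3.18% and 5.08% of all genes. *Pspc1*, another paraspeckle protein, differed by -0.87 ± 0.236 from E15.5 to P30 (adjusted p = 0.00759), under the 2-fold limit. None of the 18 was called by limma-voom between SGNs and HCs or between SGNs and glia at the 4-fold limit, where 26.8% and 24.7% of all genes were, although the adjusted p was under 0.01 for genes such as *Son* (3.46e-07 against HCs). *Son*, the scaffold protein of nuclear speckles, averaged 991 ± 142 CPM in glia, 704 ± 29.7 in HCs and 341 ± 23.2 in P8 SGNs, and like *Malat1* was lower in SGNs than in either.

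*Frmd8*, the protein coding gene 4224 bases beyond *Neat1*, differed in SGNs from glia by -3.77 ± 0.360 on the log2 scale (adjusted p = 3.22e-08), and was lower in SGNs, as *Neat1* was. Against HCs, however, *Frmd8* differed by 0.05 ± 0.610 (adjusted p = 0.956), with 4.61 CPM on average over the SGN libraries and 4.04 in HCs.

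*Rmst* (chr10:92071037-92165170, minus strand) was the member at the edge of detection. HC libraries had 50, 44 and 121 counts, or 2.95, 1.88 and 4.85 CPM. SGN libraries had 0 to 7 counts, with 0 in all 3 libraries at E15.5, and all 3 glial libraries had 0. A count of 0 allows up to 3 counts per library, which covers counting error only and equals at most 0.289 CPM in glia. Where both reads of a fragment are counted, that limit is higher, so no fold is given against groups at 0. *Rmst* passed the filter of the cell type comparison only through the HC libraries and was not tested between ages. Its calls by limma-voom as higher in HCs than in SGNs or glia therefore give no support beyond these counts, and their p-values are not given. The call of HCs against glia was lost with quality weights for samples. Between P14 SGNs and P12 HCs *Rmst* was not called by edgeR or DESeq2. *Sox2*, the transcription factor that *Rmst* RNA is known to associate with, had 54.2 ± 8.23 CPM in HC libraries, 73.9 ± 23.0 in glia and 8.74 ± 0.741 in P8 SGNs (SD, n = 3), so the glial libraries held *Sox2* without counts of *Rmst*.

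Between neighbouring ages, members were called at the first step. There, 3 members rose and 1 fell, where 5.08% of all genes rose and 3.18% fell. From P1 to P8 0 of the 7 members tested were called by limma-voom, edgeR or DESeq2, where 4.29% of all genes rose and 3.15% fell, 7.44% together, and 2 members had an unadjusted p under 0.05 (*Meg3* and *Snhg11*). From P8 to P14 and from P14 to P30, 0 members were called by any of the 3 tools and 0 had an unadjusted p under 0.05, where 0.536% (0.251% rose, 0.285% fell) and 0.0596% (0.0331% rose, 0.0265% fell) of all genes were called. From E15.5 to P30, 2 of the 7 members tested fell and 0 rose, where 16.2% of all genes fell and 18.4% rose, 34.6% together. *Meg3* differed by -0.16 ± 0.328 over that span (adjusted p = 0.723) and *Rian* by 0.33 ± 0.230 (adjusted p = 0.254). In bulk libraries, fewer cells with an RNA and less of the RNA per cell cannot be told apart.

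Across cell types, 6 of the 8 members were called between the mean of the SGN ages and HCs (26.8% of all genes) and 6 between SGNs and glia (24.7% of all genes). Against HCs 4 were higher in SGNs and 2 lower (10.5% and 16.2% of all genes), and against glia 5 were higher and 1 lower (14.3% and 10.4%). Of the 2 lower against HCs, *Rmst* passed the filter only through the HC libraries. Its calls in the comparisons of this paragraph therefore add nothing to its counts. P8 SGNs against P8 glia called *Meg3*, *Rian*, *Mirg*, *Miat* and *Snhg11* as higher and *Neat1* as lower, where 13.4% of genes were higher and 7.53% lower, 20.9% together. P14 SGNs against P12 HCs called *Meg3*, *Rian*, *Mirg* and *Snhg11* as higher and *Neat1* and *Rmst* as lower, where 10.9% and 12.2% of genes were, 23.1% together. These comparisons share libraries with those over all ages. Without glia replicate 1, the difference of the SGN ages from glia was 2.72 for *Meg3*, 3.23 for *Rian*, 4.34 for *Miat* and -5.46 for *Neat1*, all called, and -1.94 for *Malat1*, not called. At P8 the differences from glia were 2.47 ± 0.450 for *Meg3*, 3.02 ± 0.378 for *Rian* and 3.57 ± 0.946 for *Mirg* (adjusted p = 0.000175, 3.18e-06 and 0.00453). *Mirg* lost this call without P8 SGN replicate 2 or any one glial library (adjusted p = 0.0109 to 0.0223). Between HCs and glia, 4 members were called, where 16.2% of genes were higher in HCs and 8.18% lower, 24.4% together. *Miat* and *Rmst* were higher in HCs and *Meg3* and *Rian* lower, with log2 differences of -6.20 ± 1.54 and -6.11 ± 1.20 (adjusted p = 0.00263 and 0.000346). *Meg3* lost this call without any one of the 3 HC libraries (adjusted p up to 0.0129). HC replicate 1, with 14.5 CPM of *Meg3*, also had the most glial marker RNA of the HC libraries, at 179 CPM against 46.7 and 53.4. It had the most SGN marker RNA of them too, at 191 CPM against 157 and 162. What part RNA of other cells had in its *Meg3* level was not tested. With no filter on low counts, *Meg3* lost each of its calls between cell types (adjusted p = 0.252 against HCs and 0.192 against glia) and the rise from E15.5 to P1 (adjusted p = 0.0732), with fold changes close to those above. With quality weights for samples, *Meg3* was not called against glia (adjusted p = 0.0255) or at the first age step (adjusted p = 0.0838), and *Mirg* and *Miat* were not called against glia (adjusted p = 0.140 and 0.0156).

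**Figure D4:**
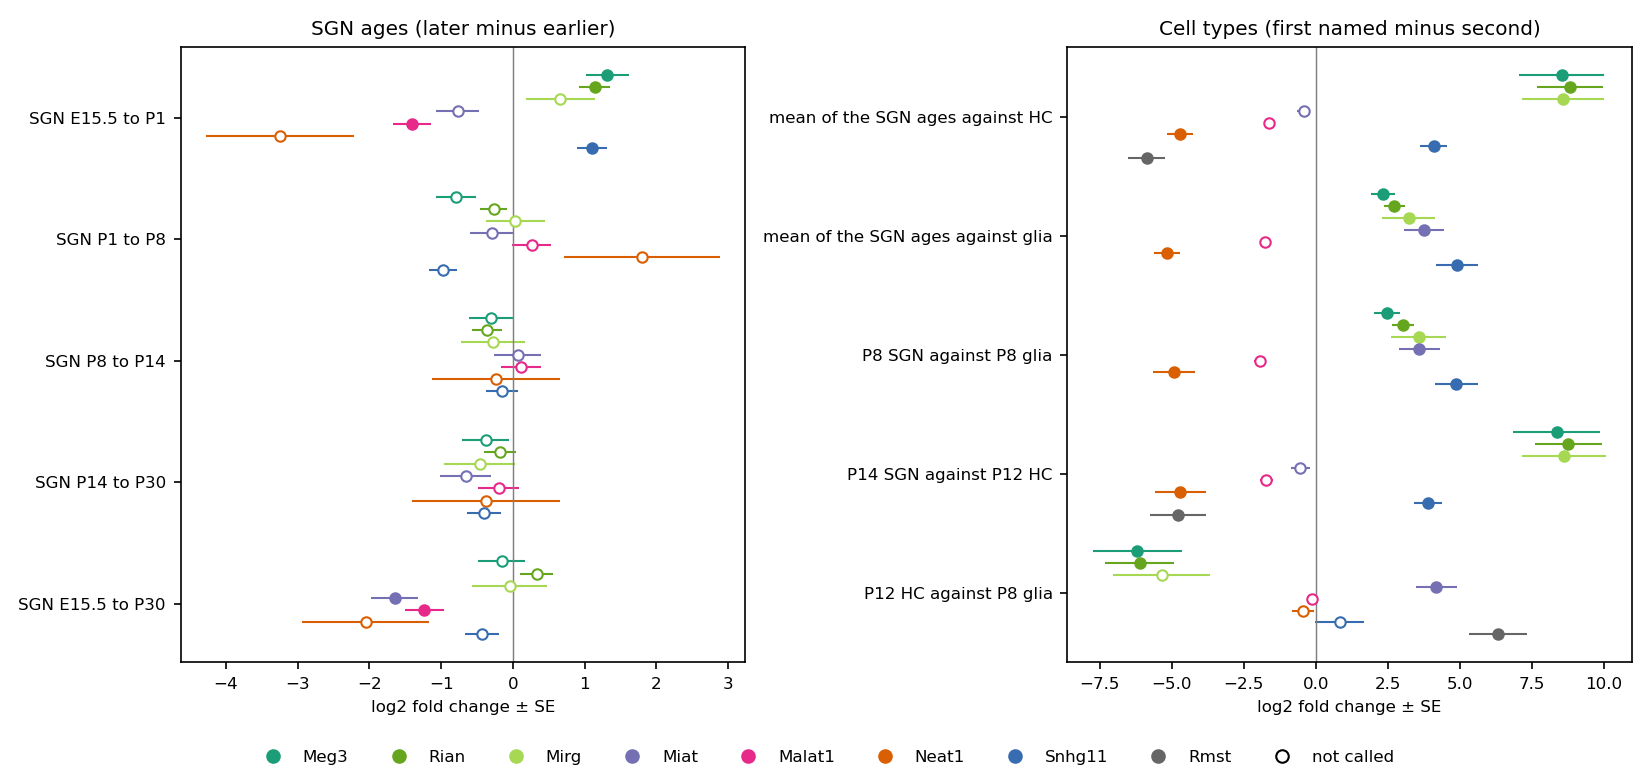
Log2 fold changes with standard errors of the members between SGN ages (left) and cell types (right), with filled points for called differences and open points for the others. The called age changes lie in the rows E15.5 to P1 and E15.5 to P30, and *Meg3*, *Rian* and *Mirg* differ from HCs by 8.53 to 8.83.

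Other well-known long noncoding RNAs were mixed. Of 17 listed, 16 were in the table and 12 were tested. Against HCs, 3 were higher in SGNs and 2 lower, where 10.5% and 16.2% of all genes were. Against glia 1 was higher and 2 lower, where 14.3% and 10.4% of all genes were. *Mir124a-1hg*, the host of a neuronal microRNA, was near-absent from HCs as *Meg3* was, with 0.257 to 0.354 CPM in HCs and 35.3 to 96.2 in SGNs. It passed the filter only through SGN libraries, so no test is given for it. Its place among the 3 higher against HCs gives no support beyond these values. From E15.5 to P30, 3 rose and 1 fell, where 18.4% and 16.2% of all genes did. The largest of these rises was that of *2900097C17Rik*, from 97.3 ± 19.8 CPM at E15.5 to 675 ± 90.1 at P30 (SD, n = 3), a rise of 2.78 ± 0.181 (adjusted p = 1.29e-08). *Peg13*, an imprinted RNA of the brain, rose by 1.05 ± 0.181 (adjusted p = 0.000261), and *Kcnq1ot1*, the antisense RNA of another imprinted region, fell by 1.08 ± 0.256 (adjusted p = 0.00317).

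For each member, the genes with the most similar course over the 21 libraries were taken from 11453 candidates by Pearson's r. On log2(TPM + 1), where TPM is a count scaled by gene length and by library, the closest genes were *Gm23600*, *Frmd3* and *Iglon5* for *Rian* (r = 0.98 for each), and *Gm23600* is a small RNA gene whose position lies inside *Rian*. *Srrm4*, a splicing regulator shared by neurons and HCs, was closest to *Miat* (r = 0.97), *Son* to *Malat1* (r = 0.96), *Mertk* to *Neat1* (r = 0.97) and *D430041D05Rik* to *Snhg11* (r = 0.97). On the CPM scale *Srrm4*, *Son*, *Mertk* and *D430041D05Rik* were again the closest (r = 0.96, 0.92, 0.94 and 0.97), while *Frmd3* was closest to *Rian* (r = 0.99) and *Ank2* to *Meg3* (r = 0.97). *Meg3* on the TPM scale was closest to *Gm23600*, and *Mirg* changed from *3110039M20Rik* to *Zfpm2*. The libraries share cell types and depth, and these values carry no test.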

How the data were processed

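RNA-Seq libraries of SGNs, HCs and glial cells were grouped by their labels. Per the labels and the study's methods, the authors mapped reads to mm10 with STAR 2.4.0i, counted them on GENCODE vM15 genes with featureCounts and deposited raw counts with a length per gene. Strand, pair and multimapping settings are not given in the sources used here. Of counts from 1 to 20, a median of 67.9% per library were even, as when each fragment adds a count per mate, so fragments number fewer than counts.

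Symbols and positions came from GENCODE M21 (52403 of 52550 genes matched). Counts were normalized with TMM (edgeR 4.0.16; factors 0.740 to 1.39) and fitted with limma-voom (limma 3.58.1, R 4.3.3) as group means, with two-sided tests and Benjamini-Hochberg adjustment over all genes of a fit. A gene was kept if some group had each of its 3 libraries above 1 CPM, which left 15113 genes for the 15 SGN libraries (ages) and 17531 for all 21 (cell types). CPM was chosen over TPM for levels after the data were seen, because *Gm23935*, a gene of 57 bases, took 8.17% to 68.1% of TPM. Members, lists and tests were chosen with earlier results of these data known. Each member is described, and the nearest protein coding neighbors and the 3 most similar genes per member were set by rule. *Gm37899*, *B830012L14Rik*, *Gm26953* and *Gm23935* were chosen after their values were seen.

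Median depth was 20384100 counts, and 3 counts equal 0.0805 to 0.289 CPM before TMM scaling. Alternatives were edgeR, DESeq2 1.42.0, library size only, no filter, sample quality weights, only the groups compared, a replicate block, no mitochondrial genes, members left out of library sizes and leaving out each library. The fits were tested on simulated data. Same-numbered libraries deviated together, with each r over 0.1, for P14 and P30 only (r = 0.39, 0.24 and 0.10). Pandas 2.3.3, numpy 2.4.6 and matplotlib 3.10.9 were used. RefSeq tables of GRCm38.p6 gave sequences. Some genes of the lists and neighbors are not reported here.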

Additional observations from a re-analysis of the deposited data

How the results depend on the processing

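No called member changed sign under any alternative. Of 1457 values recomputed, 1354 were counted as the same. For a difference this meant the same direction and side of the threshold. For a number of members called it meant a move of at most 1.5 times. Mean levels with lengths from GENCODE M21 were also among them. The numbers of members called that moved by more than 1.5 times were 2 from P1 to P8 with library size only, 3 for SGNs against glia and 3 for P8 SGNs against P8 glia with quality weights, and 2 for HCs against glia with no filter on low counts. With a library left out, members called ranged from 2 to 5 (E15.5 to P1, 2 without P1 replicate 3), 0 to 1 (P1 to P8) and 1 to 3 (E15.5 to P30, 1 without P30 replicate 1).

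Differences that changed sign were not called in the fits named here. *Mirg* from P1 to P8 was -0.0539 with edgeR, -0.0685 with DESeq2 and -0.18 with library size only (-0.40 to 0.34 with a library left out). From E15.5 to P30 *Mirg* was 0.0568 with edgeR, 0.0228 with DESeq2 and 0.12 with the replicate block (-0.44 to 0.33 with a library left out), *Meg3* was 0.0005 with edgeR (-0.58 to 0.0715) and *Rian* was -0.15 with library size only. From P8 to P14 *Miat* was -0.0314 with library size only and -0.0098 with quality weights (-0.12 to 0.26), and the ranges were -0.58 to 0.19 for *Mirg*, -0.0215 to 0.29 for *Malat1* and -0.80 to 0.55 for *Neat1*. From P14 to P30 the ranges were -0.35 to 0.0399 for *Rian*, -0.58 to 0.13 for *Malat1* and -1.25 to 0.13 for *Neat1*. Between HCs and glia *Malat1* was 0.36 with library size only, 0.17 with no filter and 0.10 with only the groups compared, *Neat1* was 0.0335 with library size only (-0.75 to 0.12) and *Snhg11* was -0.0209 with edgeR (-0.15 to 2.53). The cause was not tested.

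Replicate numbers paired the P14 and P30 libraries by the check above, and the block left 0 members called there. For other ages and cell types the numbers did not meet that check. With the block, *Neat1* from E15.5 to P1 (-3.21) and *Mirg* between HCs and glia (-5.40) were called, which gave 5 members in each of those comparisons, and no other call of a member changed. Leaving out mitochondrial genes or the members from library sizes changed no call. Transcript lengths of the members were the same in GENCODE M21. With 3 libraries per group, *Rmst*, *Mirg* in HCs and *Neat1* in SGNs are limited by counts and by spread between libraries.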
